A study of Mus musculus with 8 samples.

Results

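The genes examined were the Toll-like receptor genes Tlr1, Tlr2, Tlr3, Tlr4, Tlr6, Tlr7, Tlr8, Tlr9 and Tlr13, and Cd14, a co-receptor for lipopolysaccharide. They were chosen by name, as members of the family and its co-receptor, with earlier results of these data known. They are 10 of the 32903 genes measured. Tlr5, Tlr11 and Tlr12, also of the family, are described apart. Bulk RNA-seq was run on Kupffer cells, which are macrophages resident in the liver, of wild-type mice, to compare cells of naive and fibrotic livers. The naive group held 5 libraries, replicates 1 to 5, from untreated mice. The CCl4 group held 3 libraries, labelled 1, 2-4 and 3, from mice given carbon tetrachloride, a hepatotoxin that scars the liver, at 0.75 mL/kg in corn oil 3 times a week for 8 weeks. The labels give no vehicle-treated group, strain, age or sex, and no method of cell isolation, and do not say whether 2-4 is a pool. No label ties a library to an animal of its own, so the p-values speak only to the variation among these libraries, which may be technical. Values are in TPM, a transcript abundance scaled for transcript length and library total. Levels can thus be compared between genes, but only as far as all transcripts of a gene were counted. TPM keep no sequencing depth, and the depth behind each value is unknown.

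Toll-like receptors are membrane proteins whose leucine-rich repeats bind microbial molecules and whose cytosolic TIR domain recruits an adaptor. Those at the cell surface bind lipids and lipoproteins, and those in endosomes bind nucleic acids after the chaperone Unc93b1 has carried them there and proteases have cut them. All of the receptors studied here except Tlr3 signal through Myd88, Tlr3 signals through Ticam1 (TRIF), and Tlr4 uses both, which ends in NF-kappaB, AP-1 and interferon regulatory factors. Kupffer cells sit in the liver sinusoids, where portal blood from the gut reaches them first.

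Before the receptors are described, the make-up of the libraries bears on every value. Summed TPM of 15 Kupffer cell marker genes ranged from 4329 to 8052 in naive and from 933.2 to 1101 in CCl4 libraries, and 14 of the 15 were lower by limma. Cdh5 is on this list and on the endothelial list below; without it the Kupffer cell sums were 3840 to 7520 and 899.2 to 1075 TPM, with 13 of 14 lower. Clec4f, a lectin receptor that defines mouse Kupffer cells, was 877.5 to 1928 TPM in naive and 65.6 to 87.2 TPM in CCl4 libraries, and Timd4, a phosphatidylserine receptor of resident macrophages, was 74.9 to 145.5 TPM and 2.90 to 4.20 TPM, so the defining markers of the labelled cell type were low but not absent after CCl4. Monocyte markers moved the other way, with summed TPM of 359.2 to 672.7 and 1488 to 2026, 9 of 14 tested genes higher and none lower. Markers of liver sinusoidal endothelium summed to 8208 to 15520 TPM in naive and 742.0 to 998.2 TPM in CCl4 libraries, with 17 of 17 lower. The pan-macrophage list overlapped between groups, at 3667 to 7064 and 5089 to 12050 TPM, with 4 of 11 genes higher and 1 lower. Adgre1 (F4/80) averaged 159.6 and 149.9 TPM (limma adjusted p = 0.686), and Csf1r, the receptor for macrophage growth factor, 2.02 and 5.62 TPM (limma adjusted p = 0.0645). Csf1r was low beside Adgre1, and whether all of its transcripts were counted was not tested. Neutrophil markers were low, at 27.97 to 36.9 and 43.8 to 56.3 TPM in sum, with 1 of 5 tested genes higher, 2 lower and Ly6g listed at 0 in all 8 libraries. Stellate cell markers summed to 46.1 to 115.9 and 134.5 to 153.5 TPM, with 3 of 10 higher and 2 lower. For hepatocytes 0 of 10 were higher and 7 lower, for T and NK cells 1 of 13 higher and 3 lower, and for conventional dendritic cells 5 of 11 higher and 3 lower. The part of these cells in the receptor values was not tested. Naive replicate 5 stood apart: its correlation across genes with the other naive libraries was 0.943 to 0.951, against 0.968 to 0.981 among those 4, and it had the highest monocyte sum and the lowest endothelial sum of the naive group. In bulk RNA, fewer cells of a type and less RNA per cell cannot be told apart.

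6 of the 10 genes were higher in CCl4 libraries by limma with Benjamini-Hochberg adjustment (Tlr1, Tlr2, Tlr8, Tlr9, Tlr13 and Cd14), although relative to Ptprc, the pan-leukocyte antigen CD45, the sign turned for Tlr1, Tlr8, Tlr13 and Cd14. 1 gene, Tlr3, was lower, and Tlr4, Tlr6 and Tlr7 did not pass an adjusted p of 0.05. All 10 passed the filter on low values, at least 1 TPM in at least 3 libraries. Over all 15629 genes tested, 37.8% were called, 15.3% as higher and 22.5% as lower. The median log2 fold change, on the log2(TPM + 1) scale and as CCl4 minus naive, was 1.16 over the 10 genes and -0.06 over all genes tested. These medians were -0.20 and -1.32 relative to Ptprc. Every CCl4 library exceeded every naive library for 5 genes, Tlr1, Tlr2, Tlr9, Tlr13 and Cd14; groups that did not overlap, in either direction, were found for 36.9% of all genes tested. Without naive replicate 5 the counts were the same, 6 higher and 1 lower, and without CCl4 replicate 2-4 they were 6 and 0.

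**Figure D1:**
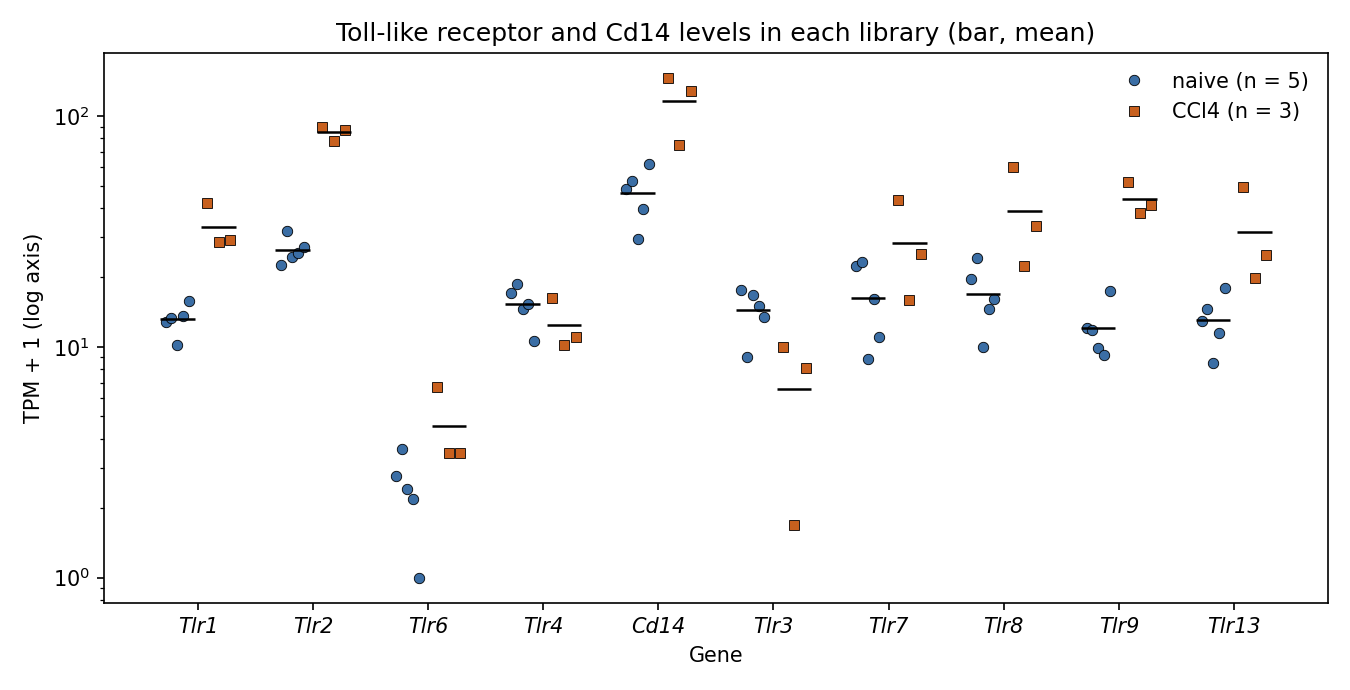
Level of each gene in each library, as TPM + 1 on a log axis, with 5 naive libraries (circles) and 3 CCl4 libraries (squares). A bar is a group mean and is left out for Tlr6 in naive libraries, where replicate 5 is listed at 0. Squares lie above every circle for Tlr1, Tlr2, Tlr9, Tlr13 and Cd14, and 1 square of Tlr3 lies far below the rest; relative to Ptprc the sign turns for Tlr1, Tlr8, Tlr13 and Cd14.

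Tlr2 pairs with Tlr1 or Tlr6 at the cell surface to bind bacterial lipopeptides. It lies on chromosome 3 (GRCm38, 83836272 to 83841824), and its coding sequence of 2352 bases is held by a single exon. A RefSeq table gave the 250 bases before an annotated start of the gene, and for Tlr2 that start lies 216 bases inside the gene's 5′ end, so 216 of the 250 bases are within the gene. A stretch of 29 bases is shown because it holds the only match to the NF-kappaB consensus among the windows of the surface receptors at hand. Capitals mark 2 overlapping matches, which begin 173 and 172 bases before that internal start.

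Tlr2, chr3:83841762-83841790, minus strand, GRCm38.p6, RefSeq: aggacacctGGGGAATTCCCacacggagc

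A match to this consensus, searched on both strands, was present in 3.9% of 32851 windows of 250 bases before annotated starts, chromosome 18 left out. A match is a description of letters, not of binding. Tlr2 measured 21.6, 30.7, 23.5, 24.6 and 26.0 TPM in naive replicates 1 to 5, and 89.0, 77.3 and 85.9 TPM in CCl4 replicates 1, 2-4 and 3. The groups were far apart and each was narrow, with means of 25.3 ± 3.43 TPM (SD, n = 5) and 84.1 ± 6.07 TPM (SD, n = 3), a ratio of 3.32. The log2 fold change was 1.70 (SE 0.14, limma adjusted p = 7.09e-06), and it stayed between 1.65 and 1.77 when any library was left out. Relative to Ptprc it was 0.22 (limma adjusted p = 0.43), and relative to the summed macrophage list 1.19 (limma adjusted p = 0.0129). Of its 2 RefSeq transcripts in the files, the curated one held 83.4% to 91.2% of the Tlr2 TPM in naive and 80.4% to 82.7% in CCl4 libraries.

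Tlr1, the partner of Tlr2 for triacylated lipopeptides, is a neighbour of Tlr6, the partner for diacylated ones, on chromosome 5 (GRCm38, Tlr1 at 64924680 to 64933600 and Tlr6 at 64953092 to 64970942). Each has its whole coding sequence in 1 exon, 2385 bases for Tlr1 and 2418 for Tlr6. Among the 45 pairs of the 10 genes, this was the only one whose coding sequences (GENCODE M21) shared runs of 31 bases, the k-mer size counted here: 603 such runs, 25.6% of those of Tlr1 and 25.3% of those of Tlr6. The longest identical stretch, 229 bases, spans bases 1468 to 1696 of the Tlr1 coding sequence and 1507 to 1735 of that of Tlr6. It is shown, with no base in capitals since all are shared, because a read that falls within it belongs equally to both genes.

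Tlr1 and Tlr6, shared coding stretch: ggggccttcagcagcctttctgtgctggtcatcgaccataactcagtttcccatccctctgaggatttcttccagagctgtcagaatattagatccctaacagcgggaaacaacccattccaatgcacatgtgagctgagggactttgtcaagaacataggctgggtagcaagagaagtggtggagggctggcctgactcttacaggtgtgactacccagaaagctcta

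Tlr1 measured 11.8, 12.4, 9.24, 12.6 and 14.9 TPM in naive replicates 1 to 5, and 40.8, 27.5 and 28.2 TPM in CCl4 replicates 1, 2-4 and 3. All CCl4 values were above all naive values. The means were 12.2 ± 2.02 TPM (SD, n = 5) and 32.2 ± 7.54 TPM (SD, n = 3), with a log2 fold change of 1.32 (SE 0.185, limma adjusted p = 0.00025). Predicted transcript models held most of this TPM in CCl4 libraries. The 2 curated of 8 Tlr1 transcripts held from 0% to 73.6% of the gene's TPM in naive and 0% to 15.1% in CCl4 libraries. The curated transcripts alone gave a log2 fold change of 0.08 (SE 0.813, limma adjusted p = 0.956), too loose to tell a change from none. How the quantification divided reads among the 8 transcripts was not tested. Relative to Ptprc the log2 fold change of the summed gene was -0.11 (limma adjusted p = 0.689).

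Tlr6 had the lowest mean of the 10 genes in both groups, although Tlr3 was below it in CCl4 replicate 2-4. It measured 1.76, 2.62, 1.43 and 1.195 TPM in naive replicates 1 to 4, was listed at 0 in naive replicate 5, and measured 5.71, 2.47 and 2.48 TPM in CCl4 replicates 1, 2-4 and 3. The groups overlapped, since naive replicate 2 exceeded 2 of the CCl4 libraries. The log2 fold change was 0.97 (SE 0.387, limma adjusted p = 0.0736), 0.68 (limma adjusted p = 0.0679) without naive replicate 5 and -0.03 relative to Ptprc. Given the shared stretch, how the authors' quantification divided reads between Tlr1 and Tlr6 is uncertain for both. The log2 ratio of Tlr1 to Tlr6 within a library averaged 2.56 ± 0.85 in naive and 2.91 ± 0.24 in CCl4 libraries (SD, n = 5 and n = 3; exact two-sided permutation p = 0.536), and that of Tlr1 to Tlr2 averaged -1.003 ± 0.24 and -1.38 ± 0.25 (exact two-sided permutation p = 0.107, 0.161 adjusted over the 6 ratios tested).

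Tlr4, which binds lipopolysaccharide together with Ly96 (MD-2), and Cd14, which hands lipopolysaccharide to that complex, differed in their calls. Cd14 was higher in CCl4 libraries, except that its sign turned relative to Ptprc, Tlr4 did not pass the test, Lbp, the serum protein that loads Cd14, was lower, and Ly96 was lower in a call that most left-out libraries removed. Tlr4 lies on chromosome 4 (GRCm38, 66827551 to 66846581) with 3 coding exons, the largest holding 89.7% of its 2505 coding bases. Cd14 lies on chromosome 18 (GRCm38, 36725064 to 36726815) with 1098 coding bases in 2 exons. Each is quantified from 1 RefSeq transcript.

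Cd14 had the highest mean of the 10 genes in both groups, although Tlr2 exceeded it in CCl4 replicate 2-4. It measured 47.1, 51.5, 28.5, 38.4 and 61.2 TPM in naive replicates 1 to 5, and 145.3, 74.2 and 126.9 TPM in CCl4 replicates 1, 2-4 and 3. The groups did not overlap, but CCl4 replicate 2-4 came close to naive replicate 5. The means were 45.3 ± 12.5 TPM (SD, n = 5) and 115.5 ± 36.9 TPM (SD, n = 3), with a log2 fold change of 1.32 (SE 0.268, limma adjusted p = 0.00284). Per 100 TPM of Ptprc, Cd14 was at 41.5 ± 3.59 TPM among naive libraries (SD, n = 5) and at 39.7 ± 17.2 TPM after CCl4 (SD, n = 3). Its log2 fold change on that scale was -0.17 (limma adjusted p = 0.599).

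Tlr4 measured 16.1, 17.8, 13.6, 14.3 and 9.60 TPM in naive replicates 1 to 5, and 15.3, 9.14 and 10.1 TPM in CCl4 replicates 1, 2-4 and 3. The ranges lay largely on top of each other. The means were 14.3 ± 3.08 TPM (SD, n = 5) and 11.5 ± 3.31 TPM (SD, n = 3), with a log2 fold change of -0.30 (SE 0.22, limma adjusted p = 0.324), which ran from -0.50 to -0.16 when any library was left out. Relative to Ptprc it was -1.69 (limma adjusted p = 0.00049). Per 100 TPM of Ptprc, Tlr4 averaged 13.8 ± 4.09 TPM in naive (SD, n = 5) and 3.89 ± 1.49 in CCl4 libraries (SD, n = 3), without overlap. A fall on that scale is not particular to Tlr4. The median log2 fold change over all genes tested was -1.32 there, and 13728 of 16551 genes were called lower.

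Ly96 measured 26.2, 40.4, 25.7, 25.3 and 11.1 TPM in naive replicates 1 to 5, and 16.5, 9.15 and 8.97 TPM in CCl4 replicates 1, 2-4 and 3. Only naive replicate 5 reached down into the CCl4 range. Its log2 fold change was -1.04 (SE 0.345, limma adjusted p = 0.0358). Over the 8 fits that left out 1 library it ran from -1.31 to -0.86, and the call was lost in 6, without naive replicate 1 (limma adjusted p = 0.0655), 2 (0.0698), 3 (0.0628) or 4 (0.0658) or CCl4 replicate 2-4 (0.118) or 3 (0.134). Lbp fell from 25.3 ± 4.85 TPM (SD, n = 5) to 2.58 ± 0.46 TPM (SD, n = 3), a log2 fold change of -2.86 (limma adjusted p = 1.86e-06). Lbp is also made by hepatocytes, whose marker list summed to 1072 to 2207 TPM in naive and 496.9 to 1383 TPM in CCl4 libraries; its part in the fall of Lbp was not tested. Cd180 and Ly86 (MD-1), which form a receptor complex like that of Tlr4 and Ly96, were both higher, with log2 fold changes of 1.13 and 1.18 (limma adjusted p = 0.00362 and 0.00848) that turned to -0.34 and -0.32 relative to Ptprc.

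Within each library the scaling cancels, apart from the pseudocount of 1. The log2 ratio of Tlr4 to Cd14 was -1.49, -1.48, -1.02, -1.36 and -2.55 in naive replicates 1 to 5, and -3.17, -2.89 and -3.53 in CCl4 replicates 1, 2-4 and 3. All CCl4 values were lower, and naive replicate 5 lay nearest to them. The means differed by -1.62 (exact two-sided permutation p = 0.0357, 0.107 adjusted over the 6 ratios). The log2 ratio of Tlr4 to Ly96 rose from -0.73 ± 0.35 (SD, n = 5) to 0.01 ± 0.13 (SD, n = 3), a difference of 0.74 with no overlap (exact two-sided permutation p = 0.0357, 0.107 adjusted). The smallest p that the 56 splits of 8 libraries allow is 0.0357, so at least 5 of the 6 ratios would have had to reach it for any to pass after adjustment.

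**Figure D2:**
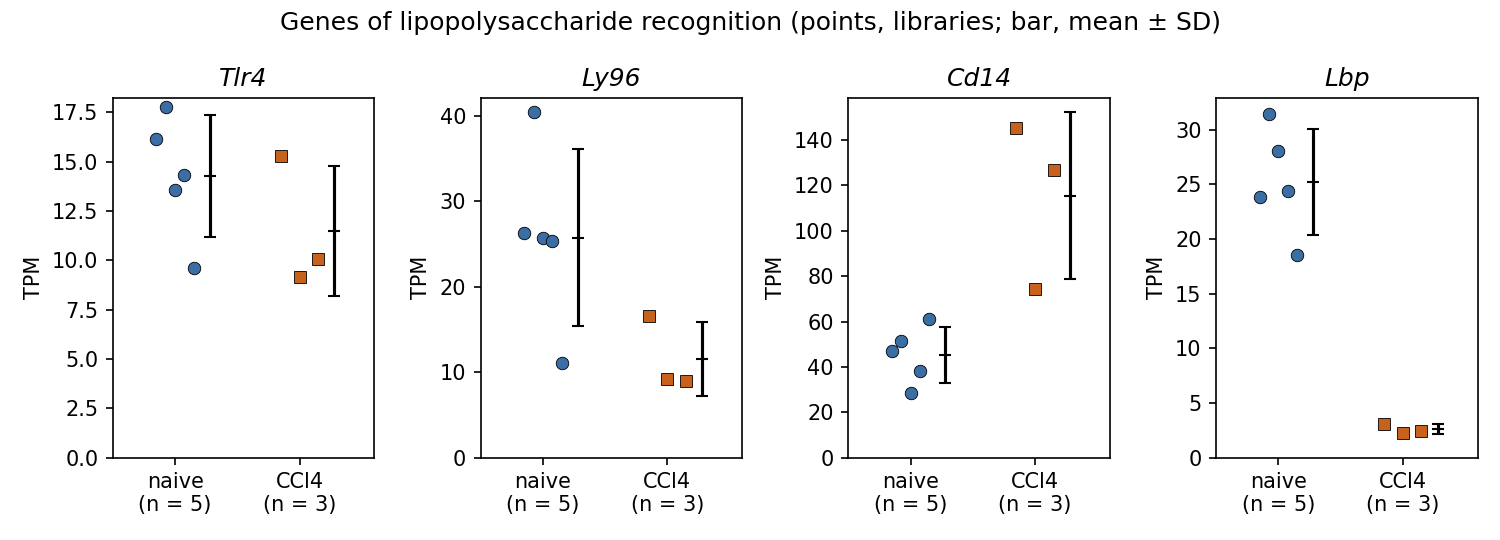
TPM of 4 genes of lipopolysaccharide recognition in 5 naive (circles) and 3 CCl4 libraries (squares), each panel on its own linear axis from 0, with the mean ± SD beside the points. Cd14 is higher (its sign turns relative to Ptprc), Lbp is lower in every CCl4 library, Ly96 has a lower mean with 1 naive library in the CCl4 range, and Tlr4 overlaps.

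The endosomal receptors differed in their calls. The within-library ratios of Tlr7 to Tlr8 and of Tlr9 to Tlr7, given below, overlapped between groups. Tlr9, Tlr8 and Tlr13 were higher in CCl4 libraries, although relative to Ptprc Tlr9 was no longer called and Tlr8 and Tlr13 changed sign. Tlr7 did not pass the test, and Tlr3 was lower in a call that several settings removed.

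Tlr9, the receptor for unmethylated CpG DNA, had the largest log2 fold change of the 10 genes. It lies on chromosome 9 (GRCm38, 106222598 to 106226876), with 99.9% of its 3096 coding bases in 1 of 2 exons, and is quantified from a single transcript. The 250 bases before its start, which is the gene's 5′ end, are shown. Capitals mark a match to the AP-1 motif TGANTCA, 58 bases upstream. No match to the NF-kappaB consensus was found, which holds for most windows, since only 3.9% had one. The Tlr2 window lies mostly within its gene, so the 2 windows are not like regions.

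Tlr9, chr9:106222348-106222597, plus strand, GRCm38.p6, RefSeq: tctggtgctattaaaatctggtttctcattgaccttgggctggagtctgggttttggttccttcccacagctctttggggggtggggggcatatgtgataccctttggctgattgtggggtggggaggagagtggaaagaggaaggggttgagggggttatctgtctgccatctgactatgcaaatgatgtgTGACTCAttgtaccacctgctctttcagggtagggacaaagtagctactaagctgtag

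TGANTCA, searched on both strands, was present in 6.75% of the 32851 windows. Tlr9 measured 11.1, 10.8, 8.91, 8.22 and 16.5 TPM in naive replicates 1 to 5, and 50.9, 37.0 and 40.1 TPM in CCl4 replicates 1, 2-4 and 3. Even the highest naive library, replicate 5, was well below the lowest CCl4 library. The means were 11.1 ± 3.24 TPM (SD, n = 5) and 42.7 ± 7.28 TPM (SD, n = 3), a ratio of 3.85, and the log2 fold change was 1.88 (SE 0.212, limma adjusted p = 5.73e-05). It was 2.02 without naive replicate 5, 1.38 relative to the macrophage list (limma adjusted p = 0.00448) and 0.44 relative to Ptprc (limma adjusted p = 0.118). Tlr2 and Tlr9 were the 2 genes still called as higher relative to the macrophage list.

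Tlr7 and Tlr8, neighbouring X-linked genes for receptors of single-stranded RNA (GRCm38, Tlr7 at 167303380 to 167330574 and Tlr8 at 167241123 to 167264329), differed in their calls. Tlr8 measured 18.7, 23.2, 9.002, 13.6 and 15.2 TPM in naive replicates 1 to 5, and 59.1, 21.4 and 32.5 TPM in CCl4 replicates 1, 2-4 and 3. CCl4 replicate 2-4 fell inside the naive range. The log2 fold change was 1.13 (SE 0.334, limma adjusted p = 0.021), and the call was lost without CCl4 replicate 1 (0.76, limma adjusted p = 0.0907) or CCl4 replicate 3 (1.18, limma adjusted p = 0.0574). Relative to Ptprc it was -0.31 (limma adjusted p = 0.432).

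Tlr7 measured 21.5, 22.3, 7.85, 15.1 and 9.98 TPM in naive replicates 1 to 5, and 42.3, 14.96 and 24.3 TPM in CCl4 replicates 1, 2-4 and 3. The groups overlapped widely, with means of 15.4 ± 6.55 TPM (SD, n = 5) and 27.2 ± 13.9 TPM (SD, n = 3). The log2 fold change was 0.77 (SE 0.379, limma adjusted p = 0.138). Left-out libraries moved it between 0.40 and 1.12, and relative to Ptprc it was -0.66 (limma adjusted p = 0.153). The log2 ratio of Tlr7 to Tlr8 averaged -0.09 ± 0.30 (SD, n = 5) and -0.45 ± 0.05 (SD, n = 3; exact two-sided permutation p = 0.143), and that of Tlr9 to Tlr7 averaged -0.37 ± 0.74 and 0.74 ± 0.50 (exact two-sided permutation p = 0.0714, 0.143 adjusted over 6).

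Tlr13, which recognises bacterial ribosomal RNA and is also X-linked (GRCm38, 106143275 to 106160493), measured 11.9, 13.7, 7.50, 10.5 and 17.1 TPM in naive replicates 1 to 5, and 48.2, 19.0 and 24.1 TPM in CCl4 replicates 1, 2-4 and 3. The groups did not overlap, although CCl4 replicate 2-4 was only just above naive replicate 5. The log2 fold change was 1.19 (SE 0.306, limma adjusted p = 0.0106), 0.81 without CCl4 replicate 1 (limma adjusted p = 0.0411) and -0.23 relative to Ptprc (limma adjusted p = 0.506).

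Tlr3, the receptor for double-stranded RNA, lies on chromosome 8 (GRCm38, 45395665 to 45411075) and has the most divided coding sequence of the 10, with 2715 bases over 4 exons. It measured 16.7, 8.06, 15.7, 13.96 and 12.5 TPM in naive replicates 1 to 5, and 8.95, 0.70 and 7.13 TPM in CCl4 replicates 1, 2-4 and 3. CCl4 replicate 2-4 was an order of magnitude below the others, and CCl4 replicate 1 overlapped naive replicate 2. The log2 fold change was -1.44 (SE 0.494, limma adjusted p = 0.0406), and -0.64 (limma adjusted p = 0.0883) without CCl4 replicate 2-4. The call was also lost when naive replicate 1, 3 or 4 was left out, under median-of-ratios and quantile scaling, with no filter on low values, and with curated transcripts alone (-0.36, limma adjusted p = 0.733), and relative to Ptprc it was -2.63 (limma adjusted p = 0.000316). 1 predicted transcript of Tlr3 was at 2.40 to 6.82 TPM in naive libraries and listed at 0 in all 3 CCl4 libraries. Endothelial markers fell in the same libraries, as given above, and their part in the fall of Tlr3 was not tested.

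Windows of 7 of the 10 genes were at hand, and 4 motifs were searched in them on both strands. Entries on chromosome 18, which holds Cd14, and entries not of full length were left out before the search. The 32851 windows are thus from the other chromosomes. The starts used for Tlr8, Tlr9 and Tlr13 are the 5′ ends of the genes. Those for the others are internal: the Tlr3 window lies wholly within the gene, 695 bases inside its 5′ end, as do both Tlr6 windows, at 11776 and 10894 bases, and 1 of 2 Tlr1 windows. Distances below are from those starts. The Tlr3 window held a match to the NF-kappaB consensus at 211 bases. The Tlr6 window that lies 11776 bases inside the gene held matches to the interferon-stimulated response element, searched as TTTC repeated with 2 free bases between (116 and 110 bases, overlapping), and to the PU.1 core AGGAAGT (62 bases). The Tlr1 window whose start lies 42 bases inside the gene held AGGAAGT at 22 bases. These letters were present in 2.98% (the response element) and 7.69% (AGGAAGT) of the 32851 windows. No match in the windows of Tlr8 and Tlr13 says only that those letters are not in those bases.

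The other 3 receptor genes of the family were measured. Tlr12, a profilin receptor, fell from 20.9 ± 7.15 TPM (SD, n = 5) to 9.36 ± 2.84 TPM (SD, n = 3), a log2 fold change of -1.05 (limma adjusted p = 0.0142), not called without CCl4 replicate 3 (-0.91, limma adjusted p = 0.07). Tlr11, its partner, averaged 4.99 and 4.65 TPM (limma adjusted p = 0.878), and Tlr5, the flagellin receptor, reached at most 1.02 TPM and was below the filter. Plasmacytoid dendritic cells and B cells also express Tlr7 and Tlr9. Of 9 plasmacytoid markers 0 were called higher and 3 lower, with sums of 249.9 to 406.4 TPM in naive and 152.1 to 243.5 TPM in CCl4 libraries. Bst2, at means of 261.4 and 136.3 TPM, made up most of these sums. Siglech averaged 3.12 and 3.91 TPM (limma adjusted p = 0.336). Of 9 B cell markers 0 were called higher and 1 lower, with sums of 131.0 to 194.6 and 87.7 to 198.1 TPM. The part of these cells in Tlr7 and Tlr9 was not tested.

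The order of the genes by level changed with the condition. In naive libraries the order of means was Cd14, Tlr2, Tlr8, Tlr7, Tlr4, Tlr3, Tlr1, Tlr13, Tlr9 and Tlr6. The ranges of neighbours in that order overlapped except between Tlr9 and Tlr6, and Cd14 exceeded Tlr2, and Tlr2 exceeded Tlr8, in 5 of 5 naive libraries. In CCl4 libraries it was Cd14, Tlr2, Tlr9, Tlr8, Tlr1, Tlr13, Tlr7, Tlr4, Tlr3 and Tlr6, and neighbours were separated only between Tlr2 and Tlr9 and between Tlr4 and Tlr3. Cd14 exceeded Tlr2, and Tlr3 exceeded Tlr6, in 2 of 3 CCl4 libraries, the exception being replicate 2-4 for both. Tlr9 thus went from rank 9 to rank 3, and since its neighbours overlapped in naive libraries, its naive rank is loose.

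As shares of the summed TPM of the 9 Toll-like receptor genes, which scaling a library by 1 factor does not change, the make-up also shifted. The naive sum was 121.0 ± 17.0 TPM (SD, n = 5), and the CCl4 sum was 274.8 ± 77.4 TPM (SD, n = 3). Tlr4 held 7.89% to 14.03% of it in naive and 3.95% to 4.37% in CCl4 libraries, and Tlr3 held 5.69% to 16.2% and 0.33% to 2.80%. Tlr2 held 16.5% to 24.3% in naive and 24.7% to 36.9% in CCl4 libraries, and Tlr9 7.22% to 13.5% and 14.1% to 17.7%. For these 4 genes the ranges did not overlap. The surface receptors Tlr1, Tlr2, Tlr4 and Tlr6 together held 44.2% ± 4.03 (SD, n = 5) and 49.0% ± 6.87 (SD, n = 3), with overlap, so the split between surface and endosomal receptors did not separate the groups. The shares are a description and were not tested.

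**Figure D3:**
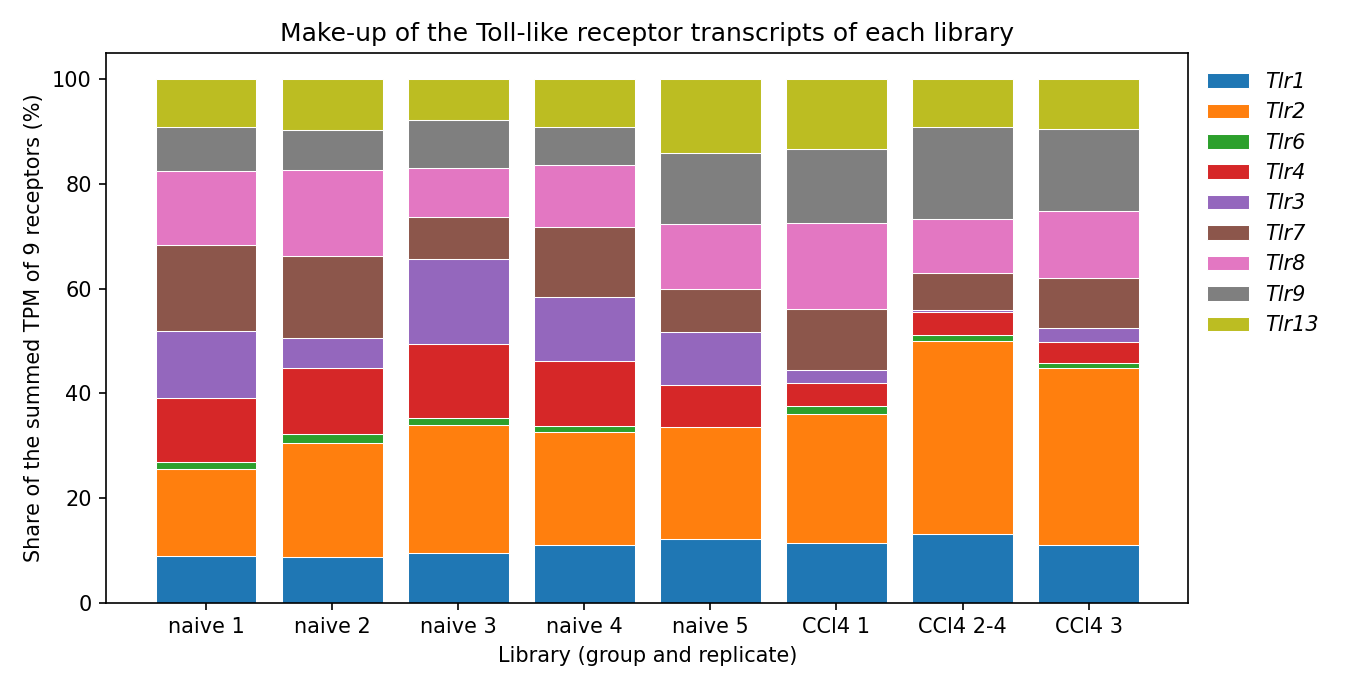
Share of each receptor gene, in percent, in the summed TPM of the 9 Toll-like receptor genes, with 1 stacked bar for each of the 5 naive and 3 CCl4 libraries. The bands of Tlr4 and Tlr3 are narrower, and those of Tlr2 and Tlr9 wider, in all 3 CCl4 libraries than in any naive library.

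How the libraries are scaled decides much of this comparison. With TPM as deposited, scaled to protein-coding genes, by median of ratios or by quantiles, Tlr1, Tlr2, Tlr8, Tlr9, Tlr13 and Cd14 were each called higher. A pair of further scalings was chosen after the data had been seen. Ptprc itself was at 80.5 to 143.9 TPM in naive and 267.0 to 370.5 TPM in CCl4 libraries. Its log2 fold change was 1.50 (limma adjusted p = 0.000149), more than that of 8 of the 10 genes. Relative to Ptprc, 0 of the 10 genes were called higher and 2, Tlr3 and Tlr4, lower. Of all 16551 genes tested on that scale, 218 were called higher and 13728 lower. The median over all genes moved by -1.25, to -1.32, and that of the 10 genes was -0.20. Relative to the summed macrophage list, 2 of the 10 were called higher and 1 lower, beside 534 and 3660 of 15913 genes tested. The median over all genes moved by -0.44, to -0.50, and that of the 10 genes was 0.67.

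**Figure D4:**
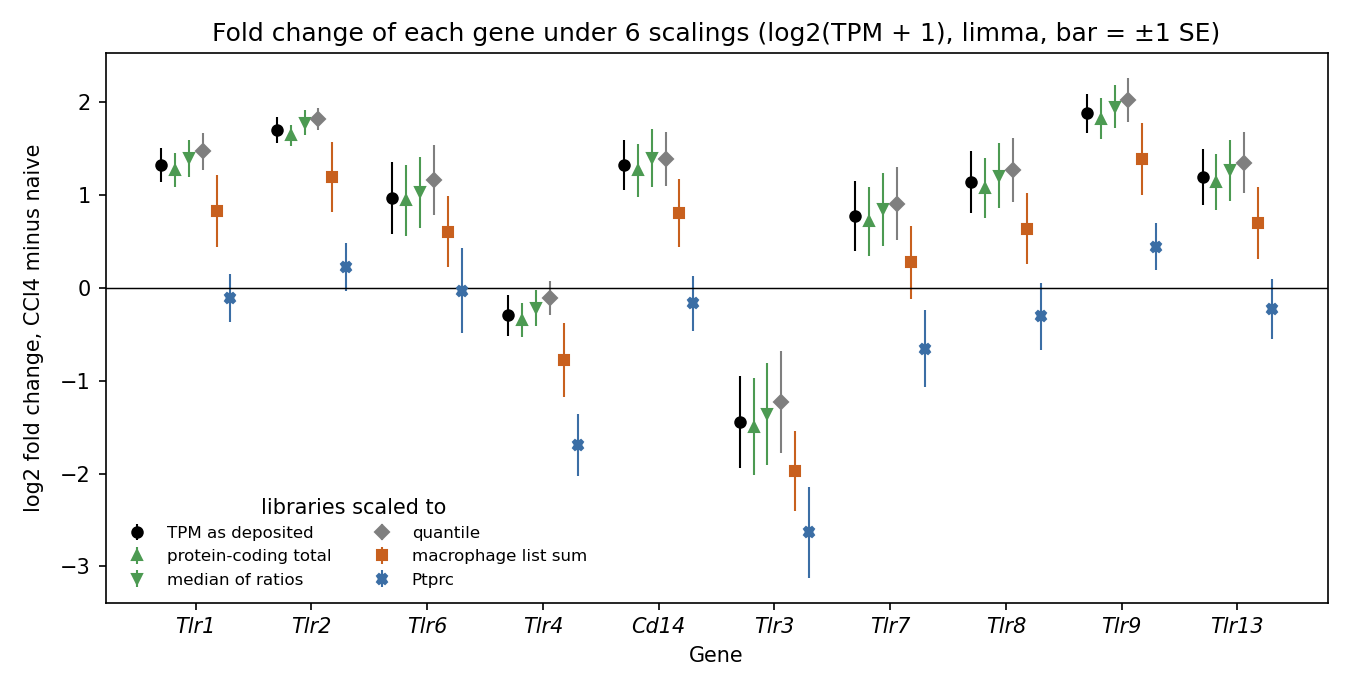
Log2 fold change, CCl4 minus naive on the log2(TPM + 1) scale, of each gene under 6 scalings of the libraries, with ± 1 SE from limma (n = 5 and n = 3). Tlr2 and Tlr9 stay above 0 under all 6, Tlr3 and Tlr4 stay below 0, and Tlr1, Tlr6, Cd14, Tlr7, Tlr8 and Tlr13 turn negative relative to Ptprc.

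The libraries of a group also differed from each other in a way shared by the 10 genes. CCl4 replicate 1 had the highest value of the CCl4 group for 10 of 10 genes and CCl4 replicate 2-4 the lowest for 10 of 10. The summed macrophage list followed the same order, at 12050 TPM in replicate 1, 7548 in replicate 3 and 5089 in replicate 2-4, while Ptprc was highest in replicate 2-4, at 370.5 TPM. T and NK cell markers were also highest there, at 289.1 TPM against 107.7 and 84.8 TPM, as were those of conventional dendritic cells, at 857.2 TPM against 572.4 and 666.6 TPM. In the naive group, replicate 3 was lowest for 5 of the 10 genes and had the lowest macrophage sum, 3667 TPM.

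The genes around the receptors were read from 10 lists of the pathway, 127 further genes tested, of which 56 were higher and 17 lower, with a median log2 fold change of 0.31. That is 44.1% higher and 13.4% lower, beside 15.3% and 22.5% of all genes tested. Of the lists below, 3 were near the 37.8% called over all genes in either direction. The endolysosomal proteases and nucleases were at 30% (20% higher, 10% lower). The kinases and ubiquitin ligases were at 35%, all higher, and the chaperones and trafficking proteins at 44.4%, all higher. Relative to Ptprc the counts over all pathway lists were 7 higher and 90 lower of 129, beside 218 and 13728 of all 16551 genes tested. With the macrophage list as the scale they were 20 and 19 of 128, beside 534 and 3660 of 15913 genes. Directions below hold for TPM as deposited, and the genes that turned negative relative to Ptprc are named as such. Among 9 co-receptors and ligand-transfer proteins, 5 were higher and 3 lower. Itgam (CD11b), an integrin chain of monocytes and macrophages, rose from 12.5 ± 7.62 TPM (SD, n = 5) to 124.2 ± 9.23 TPM (SD, n = 3), a log2 fold change of 3.35 (limma adjusted p = 1.8e-05), and was still called relative to Ptprc, at 1.90. Clec7a (Dectin-1), a beta-glucan receptor that works alongside Tlr2, rose with a log2 fold change of 1.82. Cd36, a scavenger receptor that helps Tlr2 and Tlr6, fell by 2.19 on the log2 scale; it was named after its values were seen.

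Of 9 chaperones and trafficking proteins, 4 were higher and 0 lower by limma. Unc93b1 measured 256.6, 277.6, 171.8, 210.1 and 262.6 TPM in naive replicates 1 to 5, and 518.9, 329.7 and 430.5 TPM in CCl4 replicates 1, 2-4 and 3. It was higher in every CCl4 library, with a log2 fold change of 0.85 (limma adjusted p = 0.00647) that turned to -0.66 relative to Ptprc (limma adjusted p = 0.0338). Slc15a4, an endolysosomal transporter needed for Tlr7 and Tlr9 responses, rose from 24.3 to 78.1 TPM (log2 fold change 1.66, limma adjusted p = 1.46e-05), and Ap3b1, a subunit of the AP-3 adaptor, rose by 0.57 on the log2 scale, which turned to -0.92 relative to Ptprc. Of 10 endolysosomal proteases and nucleases, 2 were higher and 1 lower. Ctsl, which helps cut endosomal receptors, fell from 767.8 ± 142.4 TPM (SD, n = 5) to 106.7 ± 24.2 TPM (SD, n = 3). Ctss, another cathepsin, and Pld4, an exonuclease that limits Tlr9, rose with log2 fold changes of 1.32 and 1.39, and both were slightly negative relative to Ptprc, at -0.19 and -0.12.

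Of 6 adaptors tested, 3 were higher and 1 lower. Myd88 was at a mean of 45.4 ± 9.31 TPM without CCl4 (SD, n = 5) and 62.6 ± 6.88 TPM with it (SD, n = 3), with a log2 fold change of 0.47 just outside the threshold (limma adjusted p = 0.0502) and -1.02 relative to Ptprc. Ticam1 rose from 12.4 to 20.1 TPM (0.64, limma adjusted p = 0.0238) and Pik3ap1 (BCAP), an adaptor to PI3-kinase, by 0.81 on the log2 scale, and both turned negative relative to Ptprc. The call of Ticam1 was lost in 4 of 8 fits that left out 1 library (naive replicate 1 or 4, CCl4 replicate 1 or 3; largest limma adjusted p = 0.113). Myd88 passed in 2, without naive replicate 5 or CCl4 replicate 2-4. Tollip, which restrains Irak kinases, had a log2 fold change of -0.69 (limma adjusted p = 0.0252), and its call was lost in 4, without naive replicate 2 (0.0503) or 3 (0.0525) or CCl4 replicate 2-4 (0.0598) or 3 (0.104). Of 20 kinases and ubiquitin ligases, 7 were higher and 0 lower by limma. Irak2, a kinase of the myddosome, rose from 24.7 to 65.8 TPM (1.38, but -0.10 relative to Ptprc), Syk from 73.1 to 220.9 TPM (1.61) and Ikbkb, a kinase that releases NF-kappaB, by 0.85 (-0.64 relative to Ptprc).

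Of 14 transcription factors, 5 were higher and 3 lower. Rel, an NF-kappaB subunit, rose from 22.4 to 78.6 TPM (1.73) and Irf5, an activator of inflammatory cytokine genes, from 73.2 to 238.6 TPM (1.77). Fos, part of AP-1, rose from 390.2 to 891.7 TPM (1.203, but -0.31 relative to Ptprc). Of 23 negative regulators, 13 were higher and 3 lower. Atf3, a repressor of Toll-like receptor targets, rose from 60.6 ± 10.5 TPM (SD, n = 5) to 448.1 ± 152.3 TPM (SD, n = 3), a log2 fold change of 2.82 that remained called relative to Ptprc, at 1.32. Zfp36 (tristetraprolin) and Zc3h12a (Regnase-1), which promote decay of cytokine mRNA, rose by 1.66 and 1.21 on the log2 scale, and the latter was -0.24 relative to Ptprc. Irak3 (IRAK-M), which blocks Irak signalling in macrophages, averaged 4.88 and 6.07 TPM and did not pass (limma adjusted p = 0.463).

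Of 20 cytokine and chemokine targets tested, 10 were higher and 4 lower. The chemokine genes Ccl4 and Ccl3 rose from 61.3 to 240.1 TPM and from 41.8 to 151.6 TPM, with log2 fold changes of 1.95 and 1.84. Cxcl9, an interferon-gamma target, fell from 32.5 ± 5.66 TPM (SD, n = 5) to 3.94 ± 0.72 TPM (SD, n = 3), a log2 fold change of -2.75. Of 14 other innate sensors, 7 were higher and 1 lower: Nlrp3, an inflammasome sensor, rose from 7.61 to 42.4 TPM, Nlrc4 from 7.54 to 16.0 TPM (1.01, but -0.37 relative to Ptprc), and Nod1, a peptidoglycan sensor, fell from 75.6 to 21.6 TPM. All of these were called by limma with TPM as deposited, except where said.

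**Figure D5:**
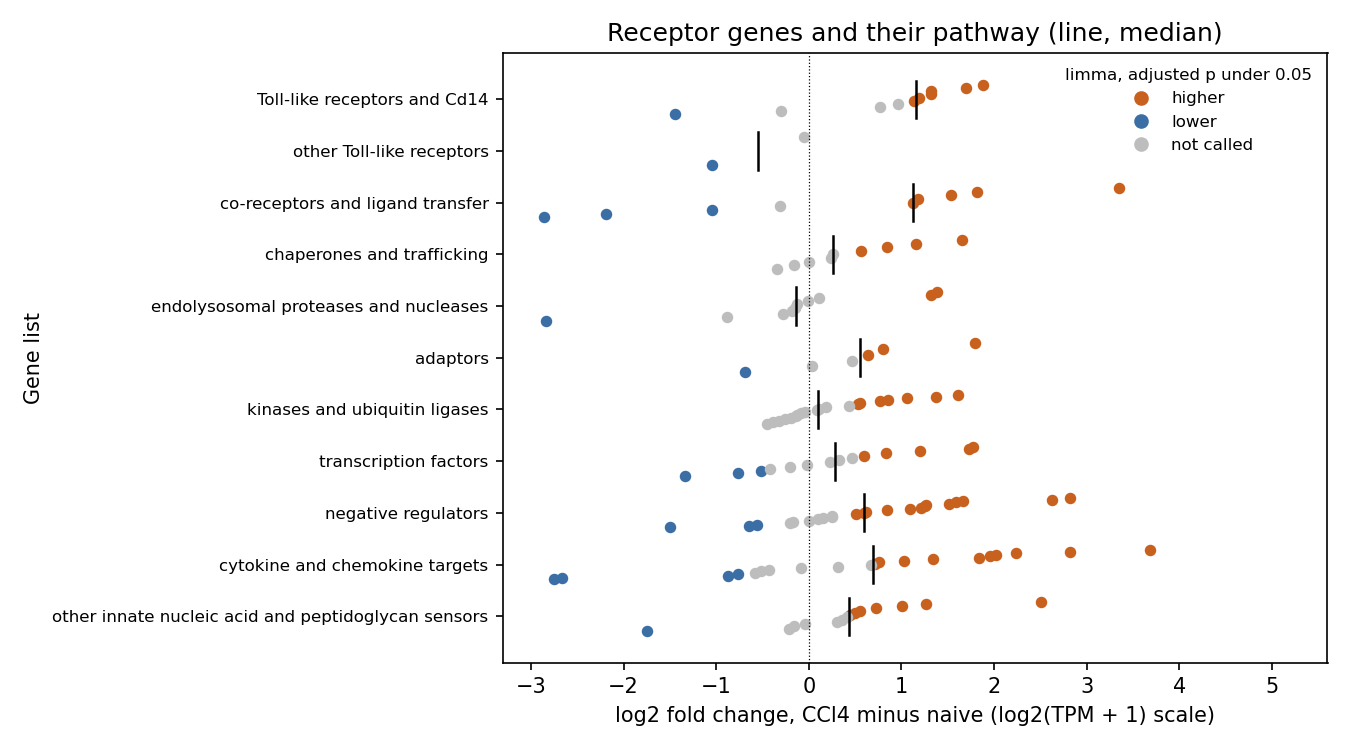
Log2 fold change, CCl4 minus naive on the log2(TPM + 1) scale, of each tested gene of the 10 receptor and co-receptor genes and of 10 pathway lists, coloured by the limma call, with a black line at each median. The receptor genes have a median of 1.16 and the pathway genes together 0.31. Relative to Ptprc most of these points lie below 0, with a median of -1.05 over the pathway genes and -1.32 over all genes tested.

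Some genes followed single receptors closely across the 8 libraries, by Pearson's r of log2(TPM + 1) among genes with a mean of at least 10 TPM. The group difference is part of each r, and the values given are the highest found in a search of all those genes. They describe the libraries and carry no test. Nearest to Tlr9 were Ptafr, the platelet-activating factor receptor (r = 0.999), and Cx3cr1, the fractalkine receptor (0.996). Nearest to Tlr2 were Gm31546 and Map3k1 (both above 0.99, at 0.995 and 0.994), to Tlr1 Glipr1 (0.995) and Ms4a6c (0.991), and to Tlr7 Clec4a3 (0.994) and Rab32 (0.975). Cd14 was closest to Fgd2 (0.991) and Unc93b1 (0.987), Tlr8 to Fcgr1 (0.987) and Ly86 (0.986), and Tlr13 to Slc16a10 (0.987) and Gusb (0.981). Tlr4 was closest to Rtp4 (0.990) and Pikfyve (0.986), and Tlr6 to Eif3e (0.990) and Eif2a (0.984). Tlr3 had no neighbour as close, with Srp54c at 0.941 and Cuta at 0.930.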

How the data were processed

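Kupffer cell RNA was sequenced as 5 naive and 3 CCl4 libraries. Per the file headers, the authors deposited TPM for each RefSeq transcript. Kallisto 0.42.4 and the build GRCm38 are named in the submitters' processing notes, while the index, trimming and cell isolation are not given in the sources consulted. Of 107384 transcripts, 86722 matched a gene of the RefSeq GRCm38.p6 table by accession without version and were summed to 32903 genes; the rest held 6.06% to 7.58% of TPM. Protein-coding genes held 45.5% to 56.0%. TPM keep no depth, so precision comes from the spread between libraries.

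Testing was limited to genes reaching 1 TPM in 3 or more libraries and used log2(TPM + 1), which understates the change of low genes, in limma 3.58.1 under R 4.3.3 (intensity trend, group as the only term) and Benjamini-Hochberg adjustment over all genes tested at 0.05. For within-library log2 ratios, an exact permutation test (two-sided) ran over 56 splits. The fit was tested on simulated data.

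The genes and lists were chosen with earlier results of these data known. All 10 genes are named. From each pathway list come up to 3 genes with the smallest adjusted p at a mean of at least 10 TPM. Ly96, Myd88, Ticam1, Unc93b1 and Irak3 are added, with the 2 genes nearest to each receptor, and Clec4f, Timd4, Adgre1 and Csf1r. Other markers this rule took are given as list sums, apart from Bst2 and Lyz2. Ptprc, Ly6g, Tlr5, Tlr11, Cd36, Cd180, Ly86, Cdh5 and Siglech were named with their values known. The settings varied were the pseudocount, filter, scaling, variance model, transcript set, a replicate block and leaving out each library. Windows before annotated starts are from RefSeq, without chromosome 18 and without entries not of full length, and coding sequences are from GENCODE M21.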

Additional observations from a re-analysis of the deposited data

How the results depend on the processing

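Across the planned settings, 208 fold changes of the 10 genes were recomputed: 187 kept direction and call, 17 kept direction and lost the call, 4 gained it and none turned. The causes were not tested. Adjusted p-values are limma's, given in parentheses. Genes called ranged from 4578 to 6738 with a library left out, with 5 to 7 of the 10 called higher and 0 to 1 lower, and the transcript-level fit called 3794. The counts of lower calls were 0 under no filter, median-of-ratios, quantile normalization, curated transcripts only and the transcript-level fit, all through Tlr3: it was -1.44 with no filter (adjusted p = 0.1), -1.36 by median of ratios (0.0717), -1.23 by quantiles (0.0986), -0.36 with curated transcripts (0.733) and -1.07 at transcript level (0.382), and -1.92 to -0.64 with a library left out, not called without naive replicates 1 (0.0763), 3 (0.0734) or 4 (0.0716) or CCl4 replicate 2-4 (0.0883). Tlr1 was 0.079 with curated transcripts (0.956, SE 0.813) and with accessions matched by version (0.953, SE 0.804), and 1.89 at transcript level (0.0615, SE 0.617). Tlr8 was 1.13 with no filter (0.0574), 0.98 matched by version (0.0795), 0.70 at transcript level (0.356) and 0.76 to 1.47 with a library left out. Tlr6 was called by quantiles (1.16, 0.033) and without naive replicate 2, within 0.65 to 1.14 over left-out libraries, and could not be fitted with the filter at 5 TPM or by version, where it was not kept.

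The replicate block called 5312 genes, with 8 of the 10 higher and 1 lower, adding Tlr6 (0.90, adjusted p = 0.0108) and Tlr7 (1.23, adjusted p = 0.000365). It rests in effect on replicates 1 and 3, whose deviations correlated at 0.0772 and -0.0414, so the samples are not shown to share more than a number. The block leaves 1 residual degree of freedom, so its p-values rest almost wholly on the variance that limma pools over genes.

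Relative to Ptprc, a setting chosen after seeing the data, 13946 genes were called, 218 higher and 13728 lower against 2393 and 3513 with TPM as deposited, and of the 10 genes 0 were higher and 2 lower. Tlr1 turned to -0.11, Tlr6 to -0.031, Tlr7 to -0.66, Tlr8 to -0.31, Tlr13 to -0.23 and Cd14 to -0.17, none called, with Tlr2 at 0.22 and Tlr9 at 0.44 no longer called and Tlr4 called at -1.69. Relative to the macrophage list, chosen likewise, 534 were higher and 3660 lower, and 2 of the 10 were higher: Tlr1 (0.83), Tlr8 (0.63), Tlr13 (0.70) and Cd14 (0.81) were no longer called. Quantile normalization gave 4011 higher and 3086 lower and moved the median of all genes by 0.17. Of 66 ratios recomputed, 65 kept their direction, and Tlr1 to Tlr6 turned to -0.99 with curated transcripts only. The side of the threshold says nothing for ratios with a library left out, whose exact permutation p cannot go below 0.0952 without a CCl4 library or 0.0571 without a naive one. TPM keep no depth, so low values such as those of Tlr6 carry an unknown counting error.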
